A study of Homo sapiens with 16 samples.

Results

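CAMK2B, SYT8, PHACTR3, LRRC8D and LMO4 were examined as 5 of 20033 protein-coding genes because H3K4me3 peaks in or near them were weaker or missing after octanoic acid (OA). The genes were picked on the H3K4me3 peak lists of the vehicle and OA libraries, so those values are given as a description and no test was run on them. All H3K4me3 and H3K27me3 regions inside the gene or within 5 kb of a start site annotated in GENCODE release 44 were collected. They held 8 of the 18734 H3K4me3 regions of the series and 17 of its 32643 H3K27me3 regions.

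The series profiled histone marks by CUT&RUN, in which an antibody directs a nuclease to cut and release marked chromatin. The cells were MCF-10A, a nontransformed human breast epithelial line, so every library came from 1 line. For 24 hours they received either PBS as vehicle or OA at 5 mM, with 3 replicates of each treatment for H3K4me3 and 3 for H3K27me3, and the labels describe the cultures as biological replicates. Cells without treatment gave 2 H3K4me3 and 2 IgG libraries, the IgG libraries being the negative control.

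H3K4me3 is a methyl mark that sits around active transcription start sites, most strongly at CpG-rich promoters. H3K27me3 is laid down by Polycomb complexes over silent genes, often those that act in other tissues. A gene can have several start sites, so a region deep inside it may mark an internal promoter separate from the first promoter.

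The proteins have different roles. CAMK2B is the beta subunit of calcium/calmodulin-dependent protein kinase II and is best known from neurons. SYT8 belongs to the synaptotagmins, membrane proteins of vesicle trafficking. PHACTR3 binds protein phosphatase 1 and actin. LRRC8D is a subunit of the volume-regulated anion channel. LMO4 is a LIM-only adaptor of transcription complexes that is active in breast epithelium and binds LDB1.

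The peak lists gave the position of each peak, its fold over local background, and −log10 values of p and q. On the autosomes, X and Y, H3K4me3 lists held 16086 to 19953 peaks in vehicle and 17988 to 21033 in OA. On these chromosomes the untreated H3K4me3 lists held 11242 and 12924 peaks, and IgG lists held 1131 and 1280. A region is the union of overlapping peaks from the 6 vehicle and OA libraries of a mark and was kept when at least 2 libraries had a peak. Called length is the number of base pairs under peaks. The percentile of a peak is the share of peaks in the same library with a lower −log10 p, and a library without a peak has percentile 0. The number of reads piled up at the summit was solved from the fold and the p-value. Dividing it by the lowest background shared by many peaks of the library, 0.450 to 0.853 reads, gave a depth-scaled pileup. Vehicle replicate 3 had the lowest background at 0.450 reads, so its weak peaks rested on the fewest reads, and a missing peak may be a weak one that missed the threshold.

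The sequences under the regions show how different these sites are. Each is a stretch of hg38 around the summit of the highest-ranked peak of the region, 300 bases unless annotated UTR bases were cut away, on the strand of the gene, with CpG dinucleotides in capitals. CAMK2B is shown at chr7:44225646-44225945 (minus strand), PHACTR3 at chr20:59836858-59837157, the internal LRRC8D region at chr1:89843783-89844061, the LMO4 promoter at chr1:87329245-87329493 and the LMO4 intron at chr1:87335509-87335808 (all plus strand).
CAMK2B internal region: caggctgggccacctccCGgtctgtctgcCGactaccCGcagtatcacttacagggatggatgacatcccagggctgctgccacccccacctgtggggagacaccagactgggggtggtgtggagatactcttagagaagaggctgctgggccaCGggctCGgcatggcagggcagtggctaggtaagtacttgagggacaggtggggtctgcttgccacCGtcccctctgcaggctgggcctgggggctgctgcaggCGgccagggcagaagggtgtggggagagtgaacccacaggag
PHACTR3 internal region: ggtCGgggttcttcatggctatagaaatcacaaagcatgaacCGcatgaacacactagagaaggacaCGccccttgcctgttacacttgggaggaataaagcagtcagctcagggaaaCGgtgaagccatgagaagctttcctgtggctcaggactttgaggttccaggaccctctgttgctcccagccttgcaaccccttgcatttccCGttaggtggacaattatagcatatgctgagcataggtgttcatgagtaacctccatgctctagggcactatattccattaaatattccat
LRRC8D internal region: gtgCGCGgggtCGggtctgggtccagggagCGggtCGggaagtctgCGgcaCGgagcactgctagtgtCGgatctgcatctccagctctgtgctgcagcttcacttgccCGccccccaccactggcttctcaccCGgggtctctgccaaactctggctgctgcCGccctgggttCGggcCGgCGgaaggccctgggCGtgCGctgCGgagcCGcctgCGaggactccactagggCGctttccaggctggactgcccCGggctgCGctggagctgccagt
LMO4 promoter, after exon 1: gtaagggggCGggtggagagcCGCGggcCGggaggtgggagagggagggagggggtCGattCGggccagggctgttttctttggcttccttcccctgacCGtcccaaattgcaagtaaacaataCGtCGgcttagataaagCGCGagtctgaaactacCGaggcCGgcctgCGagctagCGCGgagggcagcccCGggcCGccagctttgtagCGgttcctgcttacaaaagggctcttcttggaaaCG
LMO4 intron: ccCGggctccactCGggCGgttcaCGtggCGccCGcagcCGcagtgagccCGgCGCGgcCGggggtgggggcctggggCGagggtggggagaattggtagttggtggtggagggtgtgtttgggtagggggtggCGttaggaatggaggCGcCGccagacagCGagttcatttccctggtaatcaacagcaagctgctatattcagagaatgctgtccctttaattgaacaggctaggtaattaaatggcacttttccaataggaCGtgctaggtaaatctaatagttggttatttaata

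CpG dinucleotides were sparse in the CAMK2B and PHACTR3 regions. The 300-base windows of CAMK2B and the stronger PHACTR3 region held 7 and 5 CpG, against a median of 21.5 over the windows of all 18734 regions. The second PHACTR3 region held 1 CpG, and 0.502% of all windows held fewer. The promoter window of LRRC8D, nearly all of it UTR and therefore not printed, was CpG-rich with 40, more than 92.4% of the windows. The internal LRRC8D window had 23, the LMO4 promoter 24 and the LMO4 intron 17.

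GC content ran from 45.0% in the second PHACTR3 region to 75.3% at the LRRC8D promoter, with a median of 64.3% over all windows. The GC box GGGCGG, searched on both strands, occurred 4 times at the LRRC8D promoter, 2 times in its internal region and 1 time in each LMO4 window. It was absent from the windows of CAMK2B and PHACTR3, and 50.3% of all windows held it. CCAAT occurred 2 times in the LMO4 intron and was held by 19.9% of all windows. The E-box CAGGTG occurred 2 times in the CAMK2B window and 1 time in the internal LRRC8D window and was held by 24.4% of all windows. These are matches of letters and were not tested as binding sites.

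Of the 8 H3K4me3 regions, 3 had a lower percentile in every OA library than in every vehicle library. The same pattern held for 4.52% of all 18734 regions, but the genes were selected for it and nothing is read from the excess. Fewer OA than vehicle libraries had a peak at 5 of the 8 regions, a pattern of 6.73% of all regions. Without vehicle replicate 3 the count of 3 became 6, and without OA replicate 2 the count of 5 became 3. The median difference in percentile between OA and vehicle means was −21.0 over the 8 regions and 2.86 over all regions. None of the 8 regions had a peak in an IgG library. IgG peaks lay at only 2.85% and 3.87% of the regions called in all 3 vehicle libraries, so their absence here is near that rate. That set leaves out the CAMK2B region and the second PHACTR3 region. The regions at the annotated canonical start, 3 of the 8, were called in all 6 libraries, and the other 5 are the ones with fewer OA calls.

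**Figure D1:**
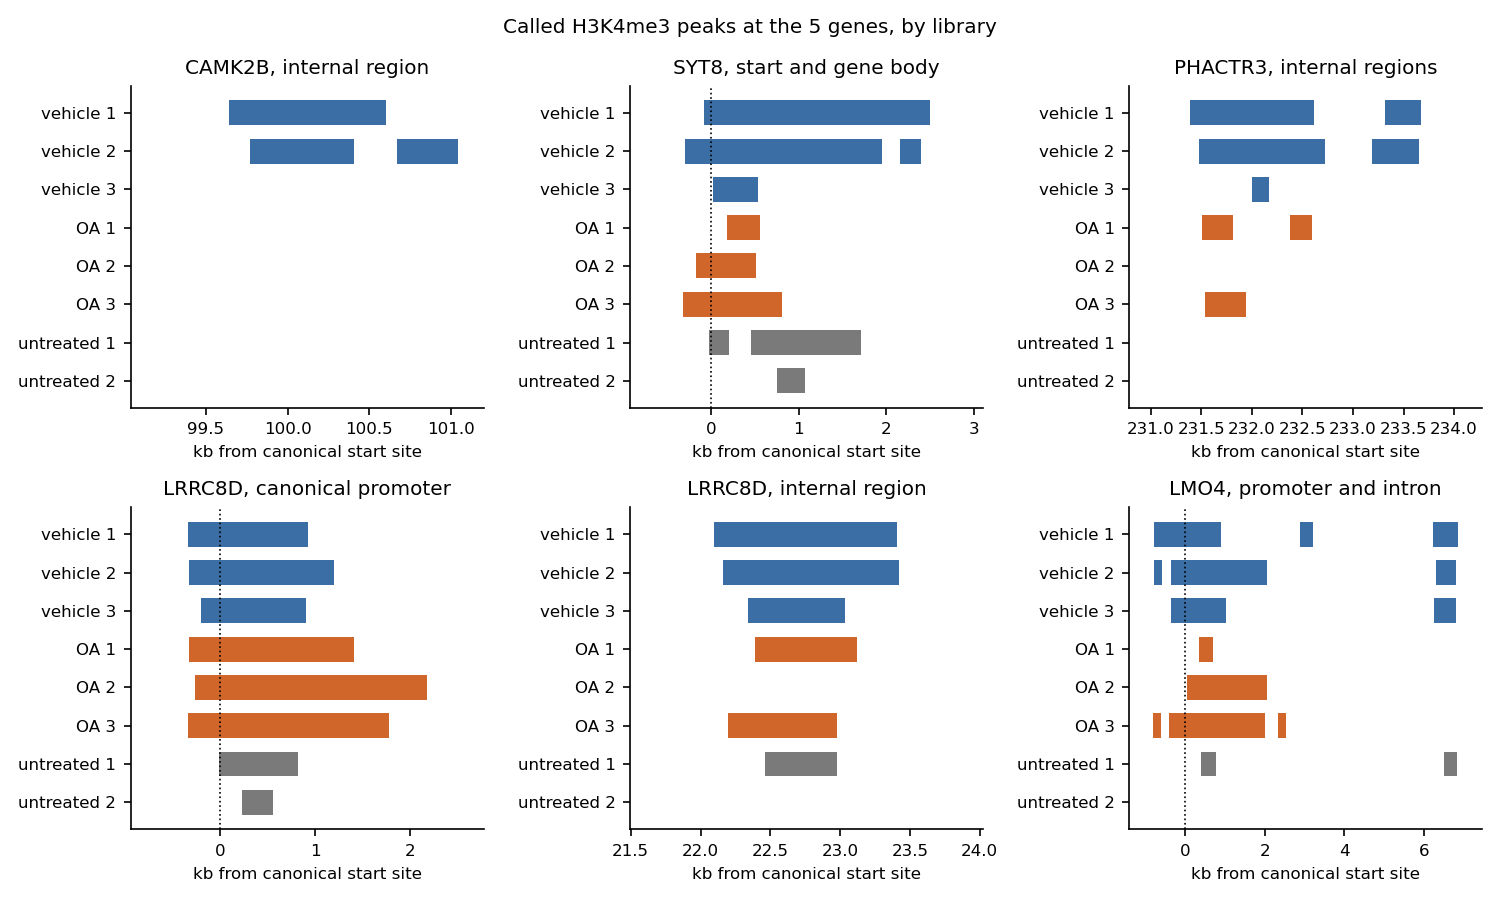
Called H3K4me3 peaks (bars) in 8 libraries at the 5 genes. The x axis is the distance in kb from the canonical start site in the direction of transcription, which the dotted line marks. Vehicle is blue, OA orange and untreated grey. The LMO4 intron has a peak of 506 to 642 bp in the 3 vehicle libraries and none in OA, while the LRRC8D promoter peak is longer in all 3 OA libraries.

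At LRRC8D, the promoter was called over a longer stretch in every OA library, while an internal region ranked lower in every OA library. The gene (ENSG00000171492) lies on the plus strand of chromosome 1 from 89821014 to 89936611. The internal region, chr1:89843127-89844454, is 22095 bp from the canonical start. It overlaps exon 2 of the 3 canonical exons and covers the start site of the protein-coding transcript LRRC8D-206. The start of LRRC8D-203 is 79 bp away.

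This internal region had peaks of 1317, 1264 and 700 bp in vehicle replicates 1, 2 and 3. OA replicates 1 and 3 had peaks of 730 and 784 bp, and OA replicate 2 had none. The percentiles were 81.0, 71.1 and 78.6 in vehicle and 19.9, 0 and 38.2 in OA, and no OA value reached a vehicle value. The mean percentile was 76.9 ± 5.19 for vehicle against 19.3 ± 19.1 for OA (SD, 3 libraries each). This difference of −57.5 was the largest of the 8 regions.

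The fold of the internal LRRC8D peaks was 11.6, 14.4 and 14.1 in vehicle and 5.57 and 10.2 in the OA libraries with a peak. Summit pileups were 78, 107 and 44 reads in vehicle and 14 and 27 reads in OA. After scaling to depth they were 94.9, 138 and 97.8 in vehicle and 16.4 and 37.4 in OA, so vehicle replicate 3 was as high as the deeper vehicle libraries. Untreated replicate 1 had a peak of 517 bp at percentile 22.9 and untreated replicate 2 had none. The untreated cells therefore ranked near the OA libraries at this site, although they also had fewer peaks in all.

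The LRRC8D promoter, chr1:89820689-89823202, covers exon 1 and the canonical start at 89821032. The divergent lncRNA LRRC8D-DT and the read-through gene ENSG00000271949 overlap it, and these lists do not separate them. All 6 libraries had a peak there, of 1268, 1523 and 1105 bp in vehicle and 1747, 2440 and 2122 bp in OA. The peak was longer in every OA library, a pattern of 6.68% of the 11071 regions called in all 6 libraries. A stretch of 582 bp, from 89822229 to 89822810, was called in at least 2 OA libraries and in no vehicle library.

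The fold of the LRRC8D promoter had the opposite direction to its length, and its percentile did not separate the groups. The percentiles of 76.4, 52.9 and 64.6 in vehicle and 73.5, 53.3 and 81.6 in OA overlapped. The fold was lower in every OA library, at 6.75, 5.37 and 7.52 against 10.5, 10.2 and 11.0, a pattern of 10.5% of the regions called in all 6 libraries. The fold divides by local background, which was 5.96, 19.1 and 17.1 reads in OA and 6.33, 6.93 and 2.00 reads in vehicle. Scaled pileups were 92.5, 103 and 71.1 in vehicle and 53.9, 169 and 187 in OA, which gave a log2 ratio of means of 0.62. Both untreated libraries had a peak, at percentiles 84.2 and 74.8.

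At LMO4, the promoter was called in all vehicle and OA libraries, whereas an intronic region was called in vehicle and not in OA. LMO4 (ENSG00000143013) lies on the plus strand of chromosome 1 from 87328880 to 87348923. The intronic region, chr1:87335087-87335728, is 6207 bp from the canonical start and 3306 bp from the nearest annotated start, and overlaps none of the 5 canonical exons. Peaks of 642, 506 and 567 bp were called in vehicle replicates 1, 2 and 3 and none in OA. Of all regions, 0.0801% had peaks in 3 vehicle and 0 OA libraries. LMO4 was picked for weaker or missing H3K4me3 in OA, so nothing is read from this rarity.

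The intronic LMO4 peaks were moderate ones. Their percentiles were 42.1, 23.8 and 33.2, with folds of 5.26, 3.94 and 5.61 and summit pileups of 43, 42 and 17 reads. A stretch of 506 bp was called in all 3 vehicle libraries. Untreated replicate 1 also had a peak there, of 326 bp at percentile 28.3 and with 15 reads, and untreated replicate 2 had none.

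The LMO4 promoter, chr1:87328085-87330945, covers exon 1 and the canonical start. Its called length was 1693, 2612 and 1384 bp in vehicle and 361, 2026 and 2609 bp in OA. Its percentiles were 44.6, 54.9 and 73.1 in vehicle and 35.7, 62.7 and 41.1 in OA, and the groups overlapped. The log2 ratio of the mean scaled pileups was −0.20, with scaled pileups of 76.6, 192 and 120 in vehicle and 42.2, 186 and 109 in OA. OA replicate 1 was the low library, and 361 bp of the promoter were called in all 6. Untreated replicate 1 had a peak of 357 bp at percentile 17.4.

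**Figure D2:**
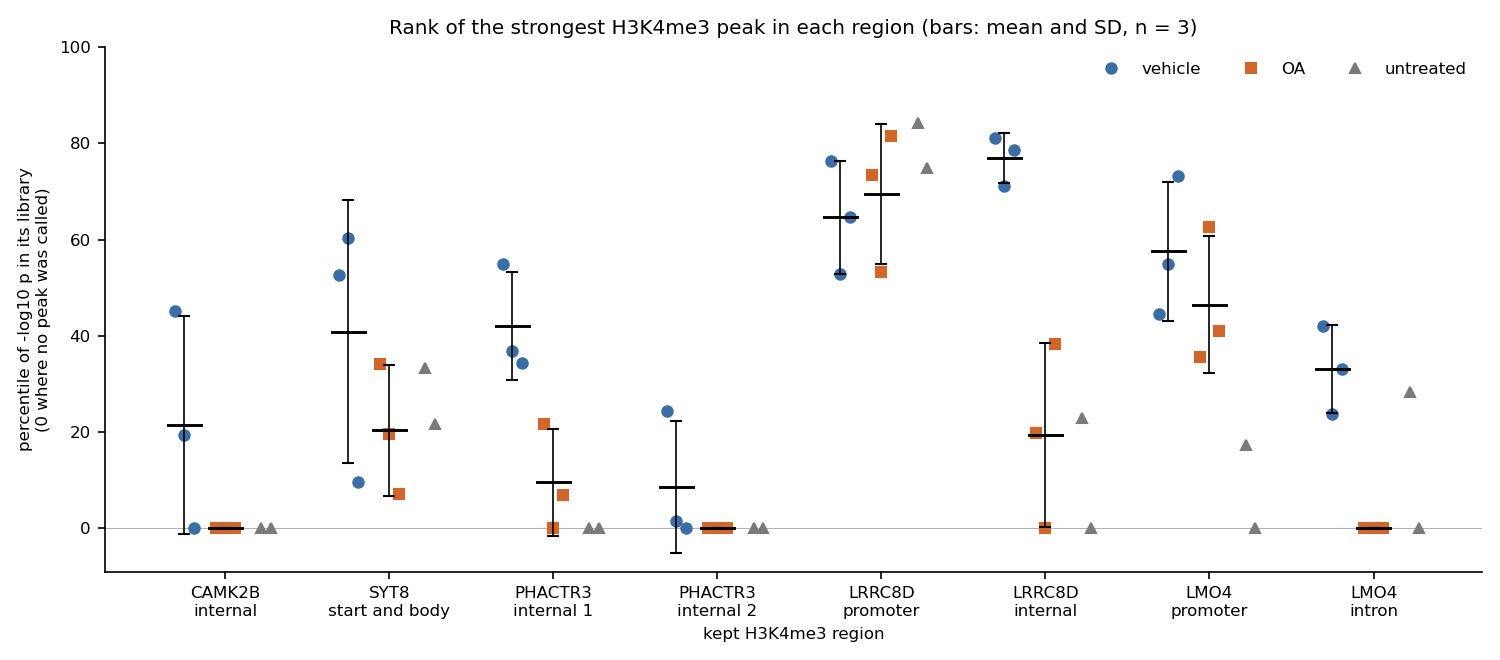
Percentile of the strongest H3K4me3 peak of each of the 8 regions within its library (y axis), for vehicle (circles), OA (squares) and untreated (triangles) libraries. Points are libraries, horizontal bars the mean and vertical bars the SD of 3 libraries. The internal LRRC8D region falls between 71.1 and 81.0 in vehicle and at most 38.2 in OA, whereas the groups overlap at the LRRC8D and LMO4 promoters.

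Of the 3 regions called in all 6 libraries, the one at SYT8 differed most in length and pileup. SYT8 (ENSG00000149043) lies on the plus strand of chromosome 11 from 1828307 to 1837521. Its region, chr11:1834668-1837490, covers all 8 canonical exons and the canonical start at 1834990. The called length was 2578, 2496 and 504 bp in vehicle and 374, 683 and 1138 bp in OA. Vehicle replicates 1 and 2 were called across most of the gene, and vehicle replicate 3 was as short as the OA libraries.

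Pileups at the SYT8 summit were 87, 134 and 9 reads in vehicle and 24, 15 and 13 reads in OA. The scaled values were 106, 173 and 20.0 in vehicle and 28.1, 23.7 and 18.0 in OA, which gave a log2 ratio of means of −2.10. Over the 10924 regions with a pileup in all 6 libraries the median log2 ratio was −0.01. Vehicle replicate 3 lay within the range of the OA libraries, so the groups overlapped. The percentiles overlapped as well, at 52.6, 60.3 and 9.70 for vehicle against 34.2, 19.7 and 7.12 for OA.

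The part of SYT8 without OA peaks lay downstream of the start. A stretch of 1140 bp, from 1835806 to 1836945, had peaks in at least 2 vehicle libraries but no OA library, whereas 330 bp, from 1835174 to 1835503, were called in all 6. SYT8 did not meet the stricter pattern of a shorter region in every OA library, which 0.533% of the regions called in all 6 libraries showed. The untreated libraries had peaks of 1478 and 321 bp at percentiles 33.3 and 21.7. TNNI2, a troponin gene of fast muscle, starts 3991 bp from the canonical SYT8 start and had this same region as its nearest.

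PHACTR3 had no H3K4me3 region at its canonical start. The gene (ENSG00000087495) lies on the plus strand of chromosome 20 from 59577509 to 59847711, with its canonical start at 59604540. Its regions lie near the far end of the gene. The stronger one, chr20:59835929-59837264, is 231389 bp from the canonical start and 76 bp from the start of the protein-coding transcript PHACTR3-208, and overlaps exon 9 of 13.

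At this PHACTR3 region the peaks spanned 1228, 1247 and 165 bp in vehicle and 529, 0 and 410 bp in OA. The percentiles were 54.9, 36.8 and 34.4 in vehicle and 21.7, 0 and 7.02 in OA, with no overlap. Pileups were 66, 51 and 10 reads in vehicle and 16 and 10 reads in OA replicates 1 and 3. Vehicle replicate 3 and OA replicate 3 thus rested on equally few reads, and after scaling they stood at 22.2 and 13.9. A stretch of 165 bp carried a peak in all 3 vehicle libraries but in no OA library.

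A second PHACTR3 region, chr20:59837726-59838216, lies in an intron 1873 bp from the nearest start. Vehicle replicates 1 and 2 had peaks of 358 and 467 bp there, at percentiles 24.4 and 1.43, and the other 4 libraries had none. Neither PHACTR3 region had a peak in an untreated library. For comparison, untreated peaks lay at 83.6% and 76.6% of the regions called in all 3 vehicle libraries. That set holds regions of every rank and leaves out the second PHACTR3 region, and the untreated lists held fewer peaks in all.

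CAMK2B also had its region far from the canonical start. The gene (ENSG00000058404) lies on the minus strand of chromosome 7 from 44210019 to 44334577 and starts canonically at 44325594. The region, chr7:44224993-44225954, is 99640 bp downstream of that start and overlaps none of the 24 canonical exons. It covers the start of CAMK2B-213, a transcript annotated as a retained intron, one of 45 start sites of the gene.

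Vehicle replicates 1 and 2 had CAMK2B peaks of 962 and 639 bp, at percentiles 45.1 and 19.4. Their folds were 8.39 and 6.45 and their pileups 31 and 16 reads. Vehicle replicate 3, all 3 OA libraries and both untreated libraries had no peak. The vehicle and OA values therefore met at 0. The pattern rested on 2 vehicle libraries.

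Peaks of single libraries numbered 6 at these genes and were kept out of the counts. At 173 bp from the canonical start of CAMK2B, OA replicate 3 had a peak of 274 bp and 10 reads, at a fold of 6.33 and percentile 13.3. CAMK2B had 2 more, in vehicle replicates 1 and 2. LRRC8D had 1, in OA replicate 3, and LMO4 had 2, in OA replicate 3 and vehicle replicate 1.

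The relatives and direct partners of the 5 genes did not share a common direction. The list held 40 genes, among them the other CaM kinase II subunits and calmodulins, 16 synaptotagmins, the other PHACTR proteins with the catalytic subunits of protein phosphatase 1, the other LRRC8 subunits, and LMO, LDB and SSBP genes. A region within 1 kb of a start site, or else the nearest within 5 kb, was found for 28 of them. At 3 of the 28 the percentile was lower in every OA library and at 4 it was higher. Over the 13648 protein-coding genes with such a region the shares were 6.56% lower and 11.4% higher. The median difference between the OA and vehicle means was 3.54 over the 28 genes and 2.49 over all 13648.

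The genes with lower values were CALM3, PPP1CB and SSBP2. CALM3, which encodes calmodulin, the activator of CAMK2B, had percentiles of 79.4, 72.9 and 68.5 in vehicle and 64.0, 67.7 and 59.3 in OA. PPP1CB, a catalytic subunit of protein phosphatase 1, had 83.8, 79.1 and 80.7 in vehicle and 78.1, 77.2 and 77.7 in OA. SSBP2, which joins LMO and LDB complexes, had 54.6, 50.2 and 78.3 in vehicle and 46.5, 30.6 and 45.0 in OA. All 3 regions kept a peak in all 6 libraries.

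Among the synaptotagmins, a region was found for 7 of the 16. Of these, SYT5, SYT7 and SYT17 were higher in every OA library. SYT5 had 35.4, 8.77 and 0 in vehicle and 62.0, 73.0 and 64.4 in OA. SYT17 had no vehicle peak and percentiles of 14.6, 43.0 and 61.2 in OA. The list median of the mean differences was 16.6, and SYT14 had −15.2. SYT8 had −20.5, but it was picked for weaker H3K4me3 in OA, so nothing is read from its sign. The SYT8 difference was −10.8 without vehicle replicate 2 and −36.1 without vehicle replicate 3.

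LRRC8B, another channel subunit from the same stretch of chromosome 1, was higher in every OA library as well. Its percentiles were 52.9, 47.4 and 51.0 in vehicle and 76.9, 58.4 and 75.0 in OA. None of the 4 other LRRC8 genes was lower in every OA library. CAMK2A, the alpha subunit, had weak peaks in 2 vehicle and 2 OA libraries, with mean percentiles of 14.8 and 11.8. CAMK2D and CAMK2G had peaks in all 6 libraries and mean differences of 4.14 and −0.74.

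**Figure D3:**
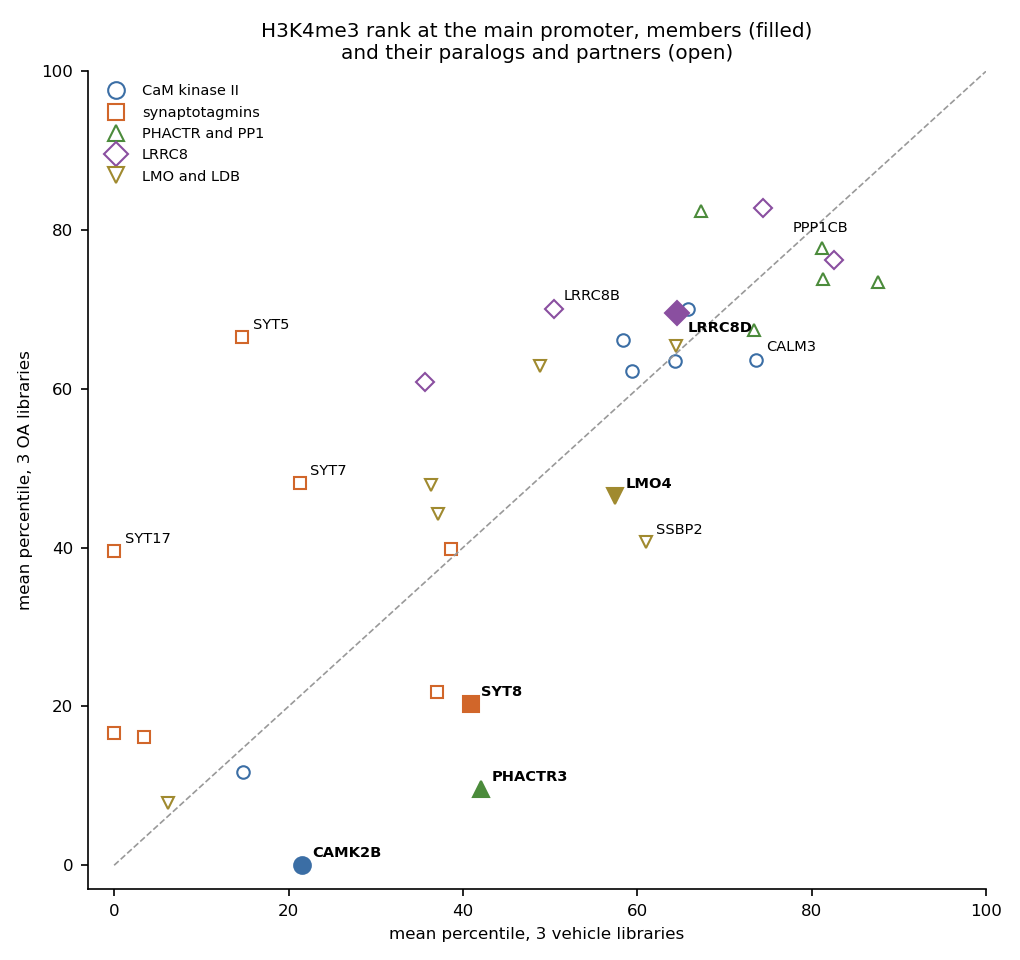
Mean percentile of the chosen H3K4me3 region of each gene in 3 OA libraries (y axis) against 3 vehicle libraries (x axis). The region is the one within 1 kb of a start site that most libraries called, or else the nearest within 5 kb. At CAMK2B and PHACTR3 it is an internal region. Filled symbols are the 5 genes and open symbols the 28 relatives and partners with a region. Names mark the 5 genes and those lower or higher in every OA library. CAMK2B, SYT8, PHACTR3 and LMO4 lie below the dashed line of equality and LRRC8D above it, by 4.86.

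The neighbouring genes were taken as the closest protein-coding start on each side. At CAMK2B, YKT6 had percentiles of 93.1, 79.3 and 66.3 in vehicle and 66.3, 49.4 and 75.4 in OA, and NUDCD3 stayed between 93.3 and 99.6 in all 6 libraries. At PHACTR3, SYCP2 had 25.4, 0 and 0 in vehicle and 52.2, 34.7 and 54.7 in OA, and EDN3 had no region. At LRRC8D, ZNF326 ranged from 86.1 to 95.3, and at LMO4, PKN2 ranged from 79.4 to 98.8. None of these neighbours was lower in every OA library, TNNI2 with the SYT8 region included, and SYCP2 was higher in every one.

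The rule that chose the genes used H3K4me3 and not H3K27me3, so the covered length of H3K27me3 was tested. Earlier results of these data were known when the genes were chosen, so the tests may not be fully independent of the choice. The depth behind H3K27me3 peaks is unknown. Broad peaks covered 9.42, 25.1 and 13.3 Mb in the vehicle libraries and 15.1, 11.8 and 3.50 Mb in OA, so OA replicate 3 had the shortest called length over the whole genome. A two-sided exact permutation test was run on the base pairs covered within the gene and 5 kb around its start sites, where 3 libraries against 3 cannot go below p = 0.1. SYT8 and LMO4 had no H3K27me3 peak in any of the 6 libraries. The other 3 genes gave 3 tests.

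PHACTR3 carried most of the H3K27me3 at these genes, in scattered short peaks along the gene and around its canonical start. The covered length was 4268, 9357 and 7640 bp in vehicle and 4042, 5480 and 380 bp in OA. The groups overlapped, at 7088 ± 2589 bp for vehicle against 3301 ± 2630 bp for OA (SD, n = 3). The difference of −3788 bp was larger than the SD of either group. It was not established by the exact permutation test (p = 0.2), which could not go below 0.1. With equal numbers of peaks per library it was −88.3 bp (p = 0.7 by the same exact test). Without OA replicate 3 it was −2327 bp (exact p = 0.3), and within 5 kb of the start sites alone −1046 bp (exact p = 0.4).

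The PHACTR3 window held 34 merged H3K27me3 regions, 13 of them kept. One of these, chr20:59606088-59609213, lies 1548 bp from the canonical start and was called in 5 of the 6 libraries, all except OA replicate 3. Those at chr20:59696258-59697062 and chr20:59738266-59739172 had peaks in all 3 vehicle libraries but in no OA library. Over all kept H3K27me3 regions 2.55% had that pattern. Counting peaks of single libraries as well, the H3K27me3 region closest to an H3K4me3 region of PHACTR3 was 22915 bp away, so the marks did not overlap.

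**Figure D4:**
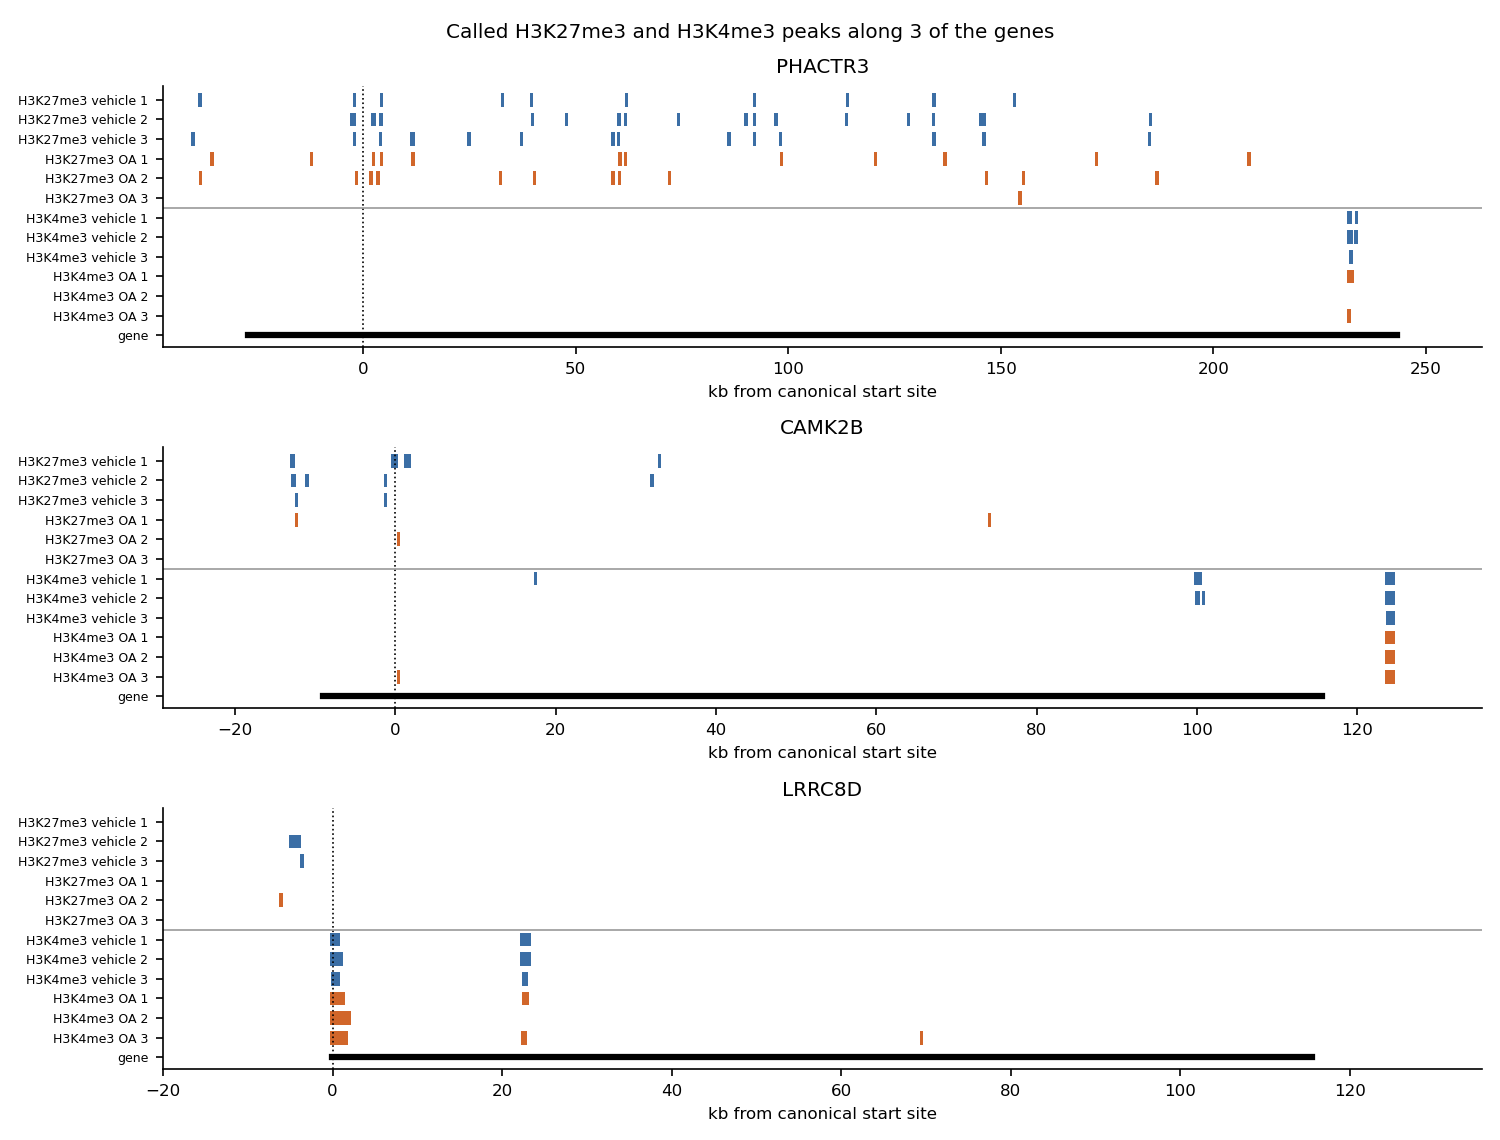
Called H3K27me3 peaks (upper 6 rows) and H3K4me3 peaks (lower 6 rows) along PHACTR3, CAMK2B and LRRC8D, for vehicle (blue) and OA (orange). The x axis is the distance in kb from the canonical start, the black bar is the gene, and short peaks are widened to stay visible. H3K27me3 of PHACTR3 lies upstream of its H3K4me3 regions by at least 22915 bp, and the H3K4me3 peaks right of the CAMK2B gene are those of YKT6.

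CAMK2B had kept H3K27me3 regions at its canonical start, 1028 bp from it and 12322 bp from it, and none at its internal H3K4me3 region. The most distant of these had a peak in 3 vehicle libraries and 1 OA library. The covered length was 2604, 1759 and 554 bp in vehicle and 554, 175 and 0 bp in OA. Vehicle replicate 3 and OA replicate 1 had the same length. The means were 1639 ± 1030 bp and 243 ± 283 bp (SD, n = 3), a difference of −1396 bp (exact permutation test, p = 0.2). With equal numbers of peaks in each library the difference was −174 bp (exact p = 0.7), and without vehicle replicate 1 it was −913.5 bp (exact p = 0.2). Within 5 kb of the start sites alone it was −1314 bp, and the exact p was 0.1, the smallest possible.

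One kept H3K27me3 region, chr7:44325246-44326117, covers the canonical CAMK2B start. Vehicle replicate 1 and OA replicate 2 had peaks there, of 872 and 175 bp. This region partly overlaps the H3K4me3 peak that OA replicate 3 alone had 173 bp from that start. The H3K27me3 region closest to the internal H3K4me3 region, a peak of OA replicate 1 alone, was 25313 bp away.

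LRRC8D had a single H3K27me3 region, chr1:89815838-89817380, which lies 3309 bp upstream of its H3K4me3 promoter region. Within 5 kb of the start sites it covered 0, 1265 and 161 bp in vehicle, and OA libraries had no peak. The mean was 475.3 ± 688.6 bp in vehicle (SD, n = 3), and the difference of −475.3 bp was smaller than this SD (exact permutation test, p = 0.4). Without vehicle replicate 2 it was −80.5 bp (exact p = 0.4).

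**Figure D5:**
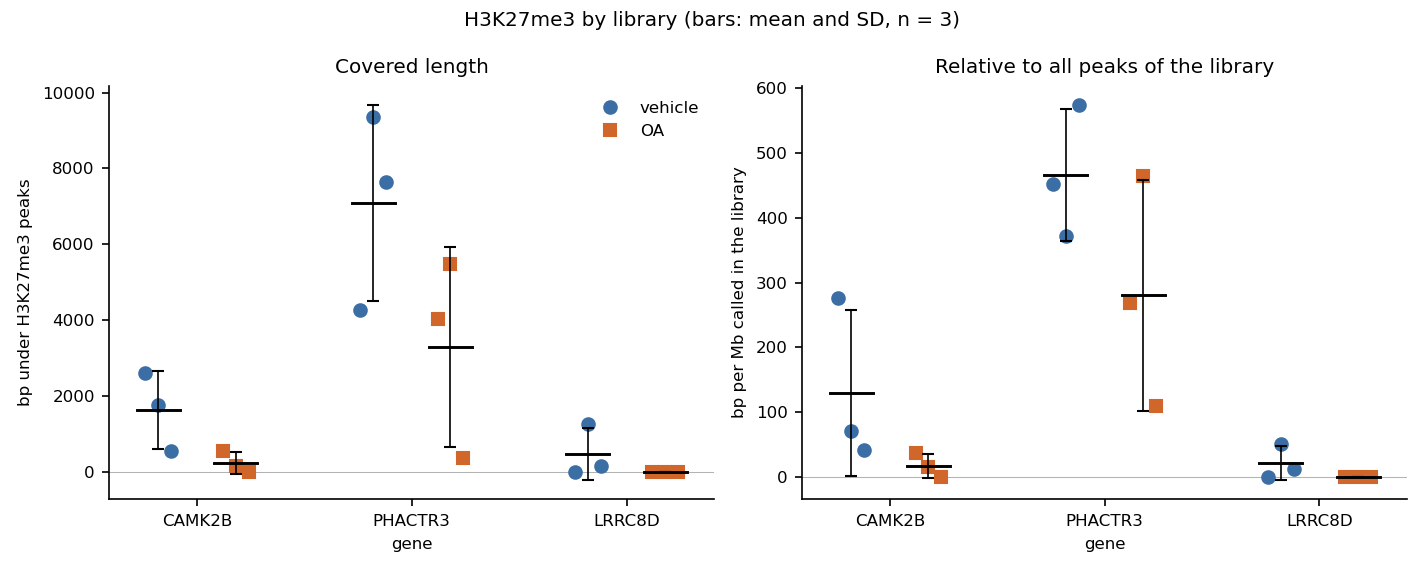
H3K27me3 at the 3 genes with any peak, as base pairs under peaks (left) and as base pairs per Mb called in the same library (right). Points are libraries, circles vehicle and squares OA, with the mean and SD of 3 libraries. The PHACTR3 groups overlap, and per Mb called OA replicate 2 stands at 464.6, between the vehicle values of 372.4 and 574.6.

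Relative to the length called in the whole library, the order of groups at PHACTR3 was less clear. Its H3K27me3 came to 452.9, 372.4 and 574.6 bp per Mb called in vehicle and 268.4, 464.6 and 108.6 bp per Mb in OA. At CAMK2B the values were 276.3, 70.0 and 41.7 bp per Mb in vehicle and 36.8, 14.8 and 0 in OA, and no OA value reached a vehicle value. Of the 17 kept H3K27me3 regions at the genes, 12 had fewer OA than vehicle calls, 5 had equal numbers and 0 had more. Regions of a single library, left out of these counts, numbered 14 for vehicle and 12 for OA, with 10 and 11 of them at PHACTR3. Over all kept H3K27me3 regions 45.7% had fewer OA calls. OA replicate 3 had a peak in 0 of the 17, and its part in these counts was not tested.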

How the data were processed

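CUT&RUN peak lists of 16 MCF-10A libraries were analysed. Per the labels, the authors named MACS2 2.2.7.1 and SICER for peak calling and hg38 as the build. SICER is named for H3K27me3, but those lists have the broadPeak layout of MACS2, so which caller made their values is not settled here. The aligner and the control used in calling are not given in the sources used here. The deposited fold of a peak is a ratio to local background, and its −log10 p-value and q-value come from the authors' caller. These values carry no scaling across libraries. Narrow lists reached a q-value of 0.00998 and broad lists 0.1.

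Peaks outside the autosomes, X and Y were left out. Peaks of the 6 treated libraries of a mark sharing at least 1 bp were merged and kept with at least 2 libraries. Pileups were solved from (pileup + 1)/(background + 1) and a Poisson p to a relative tolerance of 1e-04, which succeeded for 100% of narrow peaks whose −log10 p did not exceed 250. The main promoter is the kept region within 1 kb of a start site that most libraries called, or else the nearest within 5 kb. The genes named are the members, listed relatives and partners, and the nearest protein-coding start on each side. Members and lists were chosen with earlier results of these data known. H3K27me3 lengths were compared by two-sided exact permutation tests over 3 against 3 libraries. The p-values were not adjusted. The sequence of the SYT8 region is not reported here. The call rules were tested on simulated data. Alternatives were a q-value of at most 1e-05, equal numbers of peaks, 50% coverage, regions of any library, a 5 kb promoter limit, start-site windows, each library left out, a replicate block, and scaling to the called length, which was chosen after seeing the data. Scripts ran in Python 3.11.15 with scipy 1.17.1, numpy 2.4.6 and matplotlib 3.10.9.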

Additional observations from a re-analysis of the deposited data

How the results depend on the processing

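The percentile differences of the 8 H3K4me3 regions were recomputed 80 times in all. In 75 they kept their sign and moved by less than the replicate spread. Part of the 75 was fixed in advance. Admitting regions of any library left all 8 differences as they were. At regions without an OA peak, leaving out an OA library could not change the difference. At the LRRC8D promoter the difference of 4.86 became −0.99 without vehicle replicate 2, ranged from −1.20 (without OA replicate 3) to 12.95 (without OA replicate 2) over the libraries left out, and was 26.4 where a library had to cover at least 50% of the region. At the LMO4 promoter −11.0 became 1.44 under that same 50% rule and ranged from −19.1 without OA replicate 2 to −3.22 without vehicle replicate 3. At CAMK2B −21.5 became −9.69 without vehicle replicate 1. In the LMO4 intron −33.0 became −22.3 at a q-value of at most 1e-05. The cause was not tested.

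The number of regions lower in every OA library was 3, and with a library left out it ranged from 3 to 6, the highest without vehicle replicate 3. The number with a smaller share of OA than vehicle calls was 5, ranged from 3 to 5 with a library left out, the lowest without OA replicate 2, and was 8 of 14 with regions of any library, which adds 3 regions of single vehicle and 3 of single OA libraries. The main promoter rule took internal regions, far from the canonical start, at CAMK2B and PHACTR3. The number of main promoter regions lower in every OA library was 1, the internal PHACTR3 region, and was 0 under the 50% rule. With a library left out the number ranged from 1 to 3, at 2 without OA replicate 2 and 3 without vehicle replicate 3. A 5 kb limit for the promoter left it at 1.

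The 3 H3K27me3 differences were negative in all 32 alternatives. Exact permutation p ranged from 0.1 to 0.7 in those other than the replicate block, which used another test. Requiring at least 50% of a peak in the window left all 3 differences as they were. The sign was fixed in advance for the replicate block, which reuses the main differences, and at LRRC8D, where no OA library had a peak. With a library left out they ranged from −5198 to −2327 bp at PHACTR3, from −1938 to −913.5 bp at CAMK2B and from −713 to −80.5 bp at LRRC8D. Scaled to the called length of the library, an alternative chosen after seeing the data, they were −2425, −1461 and −271.3 bp. At a q-value of at most 1e-05 none of the genes had an H3K27me3 peak, and with equal numbers of peaks LRRC8D had none. The replicate block, an exact sign-flip test that cannot go below 0.25, gave p = 0.25 for the difference of −3788 bp at PHACTR3 and of −1396 bp at CAMK2B and p = 0.5 for −475.3 bp at LRRC8D. Same-numbered vehicle and OA libraries had correlated deviations of 0.15, 0.24 and −0.20 for H3K4me3 and 0.09, 0.03 and 0.03 for H3K27me3, so the numbers were not taken to pair the cultures. Calls depend on depth, and the depth of the H3K27me3 libraries is unknown.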
